A study of Mus musculus with 9 samples.

Results

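Adipose overexpression of Sirt3 was compared with the wild type in mice on a high fat diet, by the microRNAs that small extracellular vesicles carry in serum. The comparison uses every microRNA row of the deposited count table in 6 of the 9 libraries of the series. They are the 3 libraries of wild-type mice on the diet (HFD WT) and the 3 of mice on the same diet whose genotype is given as adipose-specific Sirt3 overexpression (HFD Sirt3 AKI, shortened here to AKI, an adipose knock-in). The remaining 3 libraries, from chow-fed wild-type mice (chow WT), enter the statistical fit for its estimate of spread. The series title gives the mice as male. A commercial reagent was used to precipitate the vesicles, so the preparation can also hold other serum particles that carry RNA. No source used here gives the promoter that drives Sirt3, the age of the mice, the length of the diet or whether sera were pooled. HFD WT is labelled wild type although its library names carry a code for a Sirt3 knock-in allele, and the AKI names carry the same code with the letters cr added. Sirt3 mRNA was not measured, so the genotype could not be checked in these libraries. AKI replicates 2 and 3 have another batch label than AKI replicate 1, HFD WT and chow WT. The labels name separate samples and not separate animals, so the p-values measure the spread between these samples. A lower count of a microRNA can come from fewer vesicles of one origin or from less of it in each vesicle, and the counts do not tell these apart.

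MicroRNAs are short RNAs that guide the silencing complex to messenger RNAs, mainly by pairing of the seed, which is bases 2 to 8 from the 5′ end. Those with the same seed form a family with overlapping targets. A hairpin precursor gives a 5p and a 3p arm, and neighbouring hairpins are often cut from a single transcript. Serum vesicles come from blood cells, endothelium, liver, adipose tissue and other organs, and several microRNAs are so enriched in one cell type that they serve as its marker. SIRT3 is the main deacetylase of mitochondria.

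The mature sequences show which of the changed microRNAs are relatives. They are RefSeq entries on GRCm38.p6, written 5′ to 3′ with the seed in capitals. The first 4 fell in AKI and share the seed of the miR-17 family, and the following 6 fell and share that of the let-7 family. The last 6 are other microRNAs described here, with no shared seed.
miR-20a-5p: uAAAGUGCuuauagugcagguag
miR-17-5p: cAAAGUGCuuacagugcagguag
miR-93-5p: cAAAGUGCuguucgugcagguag
miR-20b-5p: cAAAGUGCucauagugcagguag
let-7d-5p: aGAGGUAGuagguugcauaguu
let-7g-5p: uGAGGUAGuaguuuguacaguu
let-7i-5p: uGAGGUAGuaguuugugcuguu
let-7a-5p: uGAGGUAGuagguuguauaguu
let-7f-5p: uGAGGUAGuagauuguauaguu
let-7b-5p: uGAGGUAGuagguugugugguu
miR-7a-5p: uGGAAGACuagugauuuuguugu
miR-144-5p: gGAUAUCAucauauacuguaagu
miR-144-3p: uACAGUAUagaugauguacu
miR-126a-3p: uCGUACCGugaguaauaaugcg
miR-30a-3p: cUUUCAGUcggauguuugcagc
miR-205-5p: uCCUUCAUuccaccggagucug

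The 6 libraries held between 1729416 and 2973432 counts. Of 1169 listed microRNAs, 1122 had a count in these 6 libraries and 482 had one in each of them. The spread between libraries was wider in AKI, with a biological coefficient of variation of 39.4% against 13.6% in HFD WT and 10.2% in chow WT. AKI replicate 2 stood apart from the other AKI libraries. Its 10 most abundant microRNAs took 59.5% of the counts, against 67.9% and 67.4% in replicates 1 and 3 and 68.9% to 70.9% in HFD WT. Levels are counts per 1000000 of the library total after scaling by edgeR's TMM factors (normalised CPM), and log2 fold changes are AKI over HFD WT with their standard error (SE).

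Members of the miR-17 and let-7 seed families, the products of the miR-144 and miR-451a hairpins and both arms of the endothelial miR-126a were lower in AKI vesicles, and a smaller set that includes the islet microRNA miR-375-3p and the epithelial miR-205-5p was higher. Of 414 microRNAs tested with edgeR, 31 were lower (7.49%) and 6 were higher (1.45%) at an adjusted p below 0.05. The decreases ran from -1.35 to -0.45 on the log2 scale with a median of -0.73, and the increases from 0.52 to 1.68. None of the 8 predicted microRNAs tested was called. In each of the 37 called microRNAs all 3 AKI libraries lay beyond the range of the 3 HFD WT libraries, on the called side. Among all tested microRNAs 72 lay wholly below (17.4%) and 36 wholly above (8.7%), so most of those without overlap were not called.

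The balance of higher and lower calls depended on the scaling. With library totals in place of the scaling factors 36 were higher and 11 lower (2.66%), with DESeq2 size factors 10 and 14, with DESeq2 itself 35 and 26, and with limma on TPM 29 and 11. Over all tested microRNAs the median log2 fold change went from -0.02 to 0.27 with library totals. Of the 37 calls 6 increases and 11 decreases were still called with library totals, and the shift is smaller than the smallest change called, so no sign could turn by it. A fit of only the 6 high fat diet libraries, in which the wide AKI spread is not pooled with chow WT, called 1 microRNA higher (0.269%) and 2 lower (0.538%) of 372 tested. These were miR-375-3p, miR-7a-5p and miR-20a-5p. With the batch label as a term, miR-7a-5p alone was called. AKI replicate 1, the only AKI library with the batch label of HFD WT, had 12 of 458 tested microRNAs called higher (2.62%) and 11 lower (2.4%) against HFD WT, among them 3 of the 6 increases and 7 of the 31 decreases. In that comparison the AKI group was 1 library, so the spread came from HFD WT and chow WT alone and not from AKI, where it was wider. The filter and scaling factors of that comparison were recomputed without AKI replicates 2 and 3. Its log2 fold changes therefore differ from ratios of the levels given here. In the fit with the batch term only AKI held both labels, so that contrast also rested on AKI replicate 1. Single libraries also moved the counts. Without HFD WT replicate 1, 2 or 3 there were 4, 4 and 1 higher and 19, 13 and 12 lower. Without AKI replicate 1, 2 or 3 there were 55 (12.5%), 17 and 3 higher and 47, 34 (7.94%) and 16 lower. Without chow WT replicate 1, 2 or 3 there were 3, 3 and 5 higher and 21 lower in each case.

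**Figure D1:**
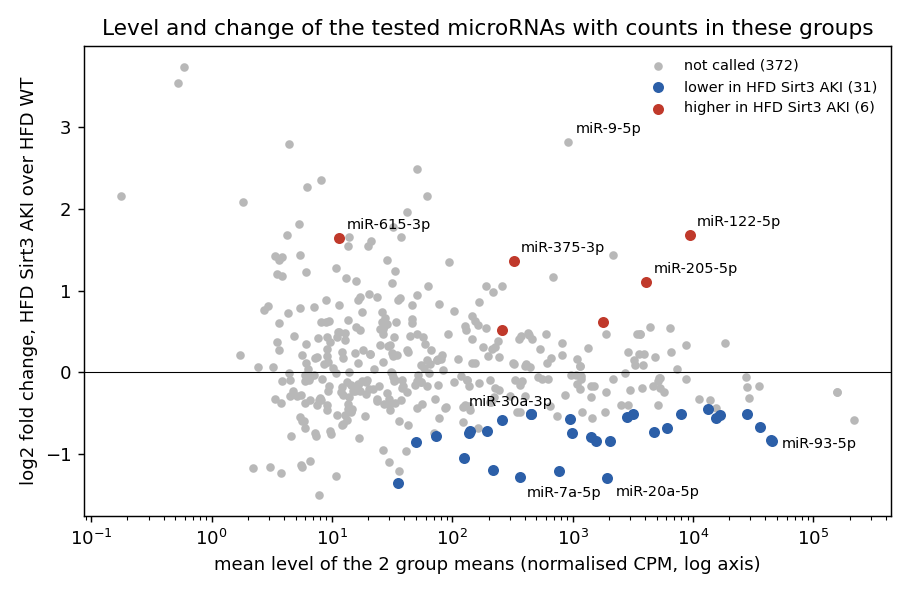
Mean level of the 2 groups in normalised CPM (log axis) against the log2 fold change of AKI over HFD WT, for the 409 tested microRNAs with counts in these groups. The 31 lower microRNAs (blue) lie mostly at high levels and the 6 higher ones (red) between miR-615-3p and miR-122-5p; miR-9-5p has a larger difference and was not called (grey).

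The clearest decrease was in miR-7a-5p, a microRNA enriched in pancreatic islets, pituitary and brain. The HFD WT libraries held 527, 530.1 and 481 normalised CPM and the AKI libraries 203, 206 and 224. The 3 AKI values were within a narrow band far below all 3 HFD WT values, across both batch labels. The group means were 513 ± 27.5 and 211 ± 11.2 (SD, n = 3), so AKI held 41.2% of the HFD WT level (log2 fold change -1.28, SE 0.13, edgeR adjusted p = 3.87e-04). It was called in 20 of 20 alternatives, with an adjusted p of 0.0104 in the 6 high fat diet libraries alone and 0.0110 with the batch term. It comes from several hairpins, one of them in an intron of Hnrnpk on chromosome 13 (58392779 to 58392886). Its seed mate miR-7b-5p stood at 45.0, 41.7 and 35.2 in HFD WT. In AKI it stood at 6.84, 43.9 and 6.80, so that replicate 2 was at the HFD WT level and the other AKI libraries far below it. It was not called (-1.10, adjusted p = 0.285), and without AKI replicate 2 it was (-2.52, adjusted p = 2.59e-04), at low counts in the remaining AKI libraries.

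In the opposite direction went miR-375-3p, the most abundant microRNA of islet beta cells and also made in gut and neuroendocrine epithelium. It stood at 229.6, 168 and 149 normalised CPM in HFD WT and at 492, 389 and 524 in AKI. Every AKI library was above every HFD WT library, and the library with the HFD WT batch label was among the higher ones. The means were 182 ± 42.3 and 468 ± 70.8 (SD, n = 3), which is 2.57-fold (log2 fold change 1.36, SE 0.24, adjusted p = 0.00559). It was called in 19 of 20 alternatives, and with the batch term it had 1.43 and an adjusted p of 0.0531. Of the pancreas and neuroendocrine list 3 of 6 members were tested, and besides these calls miR-7b-5p was the remaining one. The members with highest levels thus moved in opposite directions.

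The miR-17 seed family, which drives proliferation in blood and other dividing cells, was lower in AKI. Of 6 tested members 4 fell, against 7.49% called lower over all tested. The median of the 6 was -0.94 on the log2 scale, against -0.02 for the tested microRNAs as a whole. The largest decrease was in miR-20a-5p. It had 2425, 2887 and 2856 normalised CPM in HFD WT and 1388, 879.8 and 1072 in AKI. All AKI values were below the HFD WT range and replicate 1 was the nearest to it. The AKI mean was 40.9% of that of HFD WT (-1.29, SE 0.17, adjusted p = 0.00318). In the 6 high fat diet libraries alone its adjusted p was 0.0471, and with the batch term it was 0.0652.

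The most abundant member, miR-93-5p, stood at 52798, 58874 and 63412 normalised CPM in HFD WT and at 36276, 24939 and 36676 in AKI. AKI replicates 1 and 3, of different batch labels, were nearly equal and replicate 2 was lower. Its AKI mean was 55.9% of the HFD WT mean (-0.84, SE 0.15, adjusted p = 0.00559). A similar picture was seen for miR-17-5p at lower levels, with 152, 187 and 169.8 in HFD WT and 87.2, 69.8 and 88.4 in AKI (-1.05, SE 0.18, adjusted p = 0.00473). The fourth member to fall, miR-20b-5p, was at 240.1 ± 25.7 and 147 ± 14.7 (SD, n = 3; -0.71, SE 0.15, adjusted p = 0.0139). Its adjusted p was 0.0954 without HFD WT replicate 2, 0.0627 without HFD WT replicate 3, 0.0565 without AKI replicate 3 and 0.0822 with library totals, so the call was lost in each. The members without a call were miR-106b-5p at -1.21 (adjusted p = 0.108) and miR-106a-5p at -0.77 (adjusted p = 0.421), both of low counts. In AKI replicate 1 against HFD WT, from 1 AKI library, the log2 fold changes were -0.83 for miR-20a-5p, -0.82 for miR-17-5p and -0.54 for miR-93-5p.

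These microRNAs lie in 3 related clusters. The cluster on chromosome 14 (115043671 to 115044506, exons of Mir17hg) holds miR-17 and miR-20a, and 2 of its 9 tested products fell. From the same transcript miR-18a-5p, of another seed, had -0.96 with all AKI libraries below HFD WT (adjusted p = 0.0770). In addition miR-19a-3p and miR-19b-3p had -0.44 and -0.48, and miR-92a-3p, of which a further hairpin lies on the X chromosome, had 0.36, with no call for any of them. The level of miR-92a-3p was 14239, 18344 and 15944 normalised CPM in HFD WT and 21707, 16755 and 23922 in AKI. AKI replicate 2 overlapped HFD WT and the other AKI libraries were above it (adjusted p = 0.148). The cluster in Mcm7 on chromosome 5 (138165321 to 138165818) holds miR-93, miR-106b and miR-25. From this cluster 2 of 6 tested products fell, miR-93-5p and miR-106b-3p (-0.51, adjusted p = 0.0497), and miR-25-3p was at -0.31 (adjusted p = 0.247). In the X-linked cluster, with miR-106a and miR-363, 1 of 6 tested products fell, miR-20b-5p. In a list of 14 arms chosen from these clusters, which leaves out miR-106b-3p and several other arms, 4 fell, none rose and the median was -0.62. Beside these counts, the share called lower over all tested microRNAs was 7.49%, and the X-linked cluster rests on 1 call. Of the 14 listed arms 1 was called higher with library totals (36 of all 414 tested), and 1 without AKI replicate 2 (17 of 428).

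The let-7 family, which represses growth and RAS signalling genes and is abundant in differentiated cells, was moderately lower. Of 9 tested members 6 fell and none rose, against 7.49% lower over all tested, with a median of -0.53. The strongest by p was let-7d-5p, at 5795, 6192 and 5794 normalised CPM in HFD WT and 4039, 3086 and 3575 in AKI. The groups did not overlap, and AKI replicate 1 was again the AKI library nearest to HFD WT. The AKI mean was 60.2% of the HFD WT mean (-0.73, SE 0.12, adjusted p = 0.00473). The most abundant was let-7i-5p, with 42620.3, 44665 and 45579 in HFD WT and 33642, 21735 and 28669 in AKI (-0.66, SE 0.15, adjusted p = 0.0195). The AKI libraries of let-7i-5p spread widely and were all below HFD WT.

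The remaining decreases of the family were in let-7g-5p (-0.84, adjusted p = 0.00850), let-7a-5p (-0.55, adjusted p = 0.0117), let-7f-5p (-0.53, adjusted p = 0.00987) and let-7b-5p (-0.45, adjusted p = 0.0117). The 3 AKI libraries of let-7b-5p were nearly equal, at 11172, 11322 and 11506 normalised CPM, against 15656, 14868 and 15799 in HFD WT. Calls of let-7a-5p and let-7b-5p were each made in 10 of 20 alternatives. The 3 members without a call were let-7c-5p (-0.34, adjusted p = 0.0568), miR-98-5p (-0.42, adjusted p = 0.169) and let-7e-5p (-0.14, adjusted p = 0.527). The partner arms let-7d-3p and let-7a-1-3p (its counts identical to those of let-7c-2-3p) of the hairpins on chromosome 13 (48536012 to 48538272) had 0.08 and 0.23, with no call. With library totals 2 of the 9 were called lower and the median was -0.22, and in AKI replicate 1 alone none was called and the median was -0.25. Without any single HFD WT library the call of let-7i-5p was lost (adjusted p = 0.0554, 0.0954 and 0.131 for replicates 1, 2 and 3), as it was without AKI replicate 3 (0.0661). That of let-7g-5p was lost without HFD WT replicate 3 (0.0514), and that of let-7f-5p without HFD WT replicate 2 (0.0506), HFD WT replicate 3 (0.0548) or AKI replicate 3 (0.0507).

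The miR-144 and miR-451a hairpins, which are expressed together in erythroid cells, lie within 237 bases on chromosome 11 (78073005 to 78073241). All 3 of their tested products fell, against 7.49% called lower over all tested. The HFD WT libraries held 1042, 1168 and 985 normalised CPM of miR-144-5p, and the AKI libraries 582, 383 and 418. All AKI values were well under the lowest HFD WT value, and those of the other batch label were the lowest (-1.21, SE 0.17, adjusted p = 0.00333). The 3p arm fell by the same degree, from 303 ± 53.3 to 133 ± 14.6 (SD, n = 3; -1.19, SE 0.18, adjusted p = 0.00432). In AKI replicate 1 against HFD WT the log2 fold changes were -0.73 for the 5p arm and -0.94 for the 3p arm, from 1 AKI library.

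For miR-451a, which matures without Dicer and is among the main microRNAs of red cells, the values were 45146, 72673 and 52532 in HFD WT and 39529.9, 22362 and 34172 in AKI. Both groups spread widely and AKI replicate 1 lay close below the lowest HFD WT library (-0.83, SE 0.22, adjusted p = 0.0488). This call was among the least stable, and it was lost without any single chow WT library (adjusted p = 0.0777, 0.0818 and 0.0814), without HFD WT replicate 2 (0.213) or 3 (0.136) or AKI replicate 3 (0.107), and with library totals (0.0870). The red cell microRNAs of highest level were not called. Those were miR-486a-5p, whose counts equal those of miR-486b-5p in every library (-0.23, adjusted p = 0.252), and miR-16-5p (-0.58, adjusted p = 0.0604). The 3p arms of miR-486a and miR-486b, also identical, had -0.50 (adjusted p = 0.0495) and were called in 2 of 20 alternatives. In all, 5 of 11 erythroid microRNAs fell, or 4 of 9 with identical ones counted once, against 7.49% of all tested. None rose in the reported fit. With library totals 1 was called higher (36 of all 414 tested), and without AKI replicate 2 also 1 (17 of 428). The median of the erythroid microRNAs was -0.50 in the reported fit. They held 55.6% ± 1.17 of all counts in HFD WT and 52.5% ± 4.99 in AKI (SD, n = 3; exact two-sided permutation test, p = 0.5). Such a test of 3 libraries against 3 cannot give a p below 0.1.

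Both arms of miR-126a, the microRNA of endothelial cells that sustains VEGF signalling, were lower by a similar amount in every AKI library. The 3p arm had 32464, 32872 and 33616 normalised CPM in HFD WT and 23419.6, 23187 and 22744 in AKI. Within each group the values were almost equal, across the batch labels as well. The AKI mean was 70.1% of the HFD WT mean (-0.51, SE 0.09, adjusted p = 0.00635). The 5p arm fell from 7459 ± 298 to 4652 ± 236 (SD, n = 3; -0.68, SE 0.11, adjusted p = 0.00473). Neither was called with library totals (-0.20, adjusted p = 0.209, and -0.37, adjusted p = 0.0761), and the call of the 3p arm ended at an adjusted p of 0.058 when HFD WT replicate 3 was left out. With the batch term neither arm was called (3p, adjusted p = 0.188; 5p, adjusted p = 0.172). Against HFD WT, AKI replicate 1 alone had log2 fold changes of -0.35 (3p) and -0.47 (5p), with scaling recomputed for that comparison. With the batch term, on the scaling of all 9 libraries, they were -0.49 (3p) and -0.61 (5p). With DESeq2 size factors the 3p arm was not called (adjusted p = 0.0569). The hairpin lies in an intron of Egfl7 on chromosome 2 (26591357 to 26591429).

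The microRNA in the series title, miR-30a-3p, stood at 295, 303 and 328 normalised CPM in HFD WT and at 205, 203 and 210.4 in AKI. The AKI libraries were all but equal and lay below each HFD WT library. The AKI mean was 66.8% of the HFD WT mean (-0.58, SE 0.13, adjusted p = 0.0151). It was called in 10 of 20 alternatives, and not with library totals (-0.27, adjusted p = 0.165), in AKI replicate 1 alone (-0.45, adjusted p = 0.168), or when HFD WT replicate 2 (0.0724) or 3 (0.136) or AKI replicate 3 (0.0712) was left out. Its partner arm miR-30a-5p was at 5316 ± 619 and 5072 ± 899.7 (SD, n = 3; -0.07, adjusted p = 0.799). The seed mate miR-30e-3p had -0.41 (adjusted p = 0.173). Among 10 tested arms of the miR-30 family miR-30a-3p was the single one called, near the 7.49% called lower over all tested.

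Of 16 tested microRNAs of an adipose list 1 rose and 1 fell, which is near the shares over all tested (1.45% and 7.49%). The increase was in miR-222-3p, which promotes proliferation, at 209.6, 205 and 224 normalised CPM in HFD WT and 328, 280.2 and 309 in AKI. The groups were apart, and the highest AKI value was that of replicate 1 (0.52, SE 0.14, adjusted p = 0.0497). Leaving out any library except AKI replicate 2 ended that call, with adjusted p from 0.0611 without AKI replicate 1 to 0.176 without HFD WT replicate 2. The decrease was in miR-107-3p, a regulator of insulin sensitivity (-0.57, SE 0.14, adjusted p = 0.0335), called in 4 of 20 alternatives. Its near relative miR-103-3p had -0.33 (adjusted p = 0.0718), and the adipocyte microRNA miR-378a-3p had -0.17 (adjusted p = 0.522). The list's median was 0.16. Among 10 regulators of lipid metabolism tested, 2 fell, miR-107-3p and miR-185-5p, 1 rose, miR-122-5p, and the median was -0.16.

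Of these, miR-185-5p, which lowers cholesterol synthesis through SREBP2, stood at 1907, 1769 and 1673 normalised CPM in HFD WT and at 1173, 874 and 1051 in AKI. The groups were clearly separate (-0.79, SE 0.13, adjusted p = 0.00473). Outside that list, miR-186-5p stood at 1851, 2041 and 2135 in HFD WT and at 1278, 909.9 and 1175 in AKI (-0.84, SE 0.14, adjusted p = 0.00473). It kept its call with library totals (adjusted p = 0.0120), and its log2 fold change in AKI replicate 1 alone was -0.51. For miR-148b-3p, related to the cholesterol regulator miR-148a-3p, the means were 1230.3 ± 149 and 737 ± 102 (SD, n = 3; -0.74, SE 0.14, adjusted p = 0.00850). Leaving out HFD WT replicate 2 ended the call (adjusted p = 0.0506), as did leaving out AKI replicate 3 (0.0507). Its seed mate miR-148a-3p had -0.03 (adjusted p = 0.948), with AKI replicate 2 above and the other AKI libraries below HFD WT.

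Of 10 tested microRNAs of leukocytes and platelets 1 fell, near the 7.49% over all tested. The haematopoietic miR-142a-3p stood at 9349.9 ± 217 normalised CPM in HFD WT and 6591 ± 739 in AKI (SD, n = 3; -0.50, SE 0.11, adjusted p = 0.0195). The median of the list was -0.04. That call was lost with library totals (-0.20, adjusted p = 0.269) and without HFD WT replicate 1 (0.0546), 2 (0.0848) or 3 (0.135) or AKI replicate 3 (0.0914). The other decreases were in miR-5113 (-1.35), miR-10a-3p (-0.85), miR-301a-3p (-0.78), miR-15b-3p (-0.74), miR-140-5p (-0.72) and miR-423-5p (-0.54). The lowest level among them was that of miR-5113, with 60 to 112 counts per library in HFD WT and 30 to 62 in AKI. It was called in 16 of 20 alternatives, and the other 5 in between 4 and 7.

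**Figure D2:**
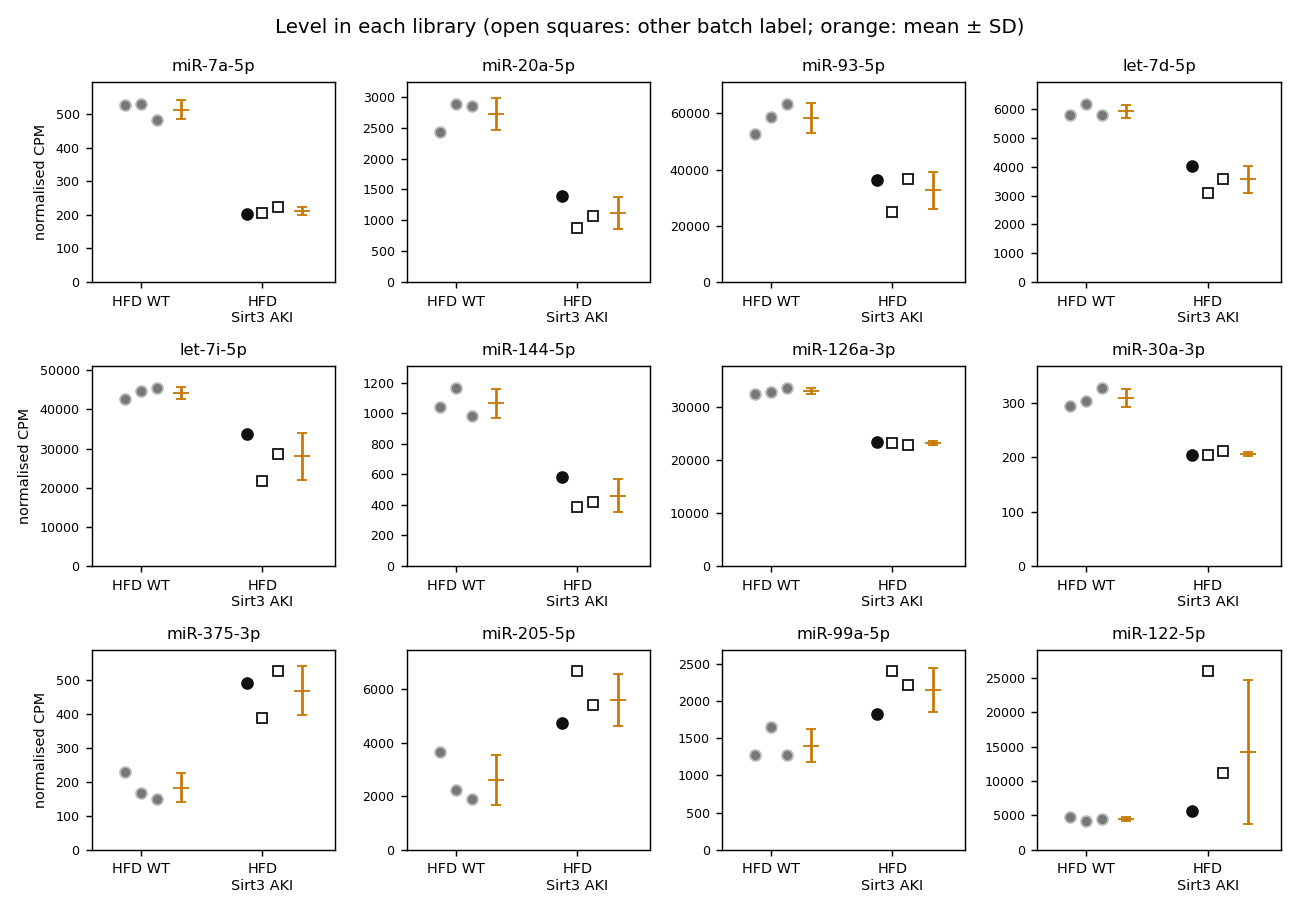
Level of 12 called microRNAs in each HFD WT library (grey circles) and AKI library (black circle, replicate 1; open squares, replicates 2 and 3 with the other batch label) in normalised CPM from 0, with mean ± SD in orange. The groups do not overlap in any panel, AKI values are close together for miR-7a-5p, miR-126a-3p and miR-30a-3p, and AKI replicate 2 lies far above the rest for miR-122-5p.

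Among the increases, miR-205-5p, a microRNA of skin and other stratified epithelia, stood at 3645, 2243 and 1907 normalised CPM in HFD WT and at 4746, 6653 and 5396 in AKI. HFD WT replicate 1 was the highest of its group and remained below each AKI library. The AKI level was 2.15-fold that of HFD WT (1.11, SE 0.23, adjusted p = 0.0117). Leaving out HFD WT replicate 2 or 3 ended the call (adjusted p = 0.0609 and 0.0520). For miR-99a-5p, a repressor of mTOR and IGF1R, the values were 1274, 1655 and 1278 in HFD WT and 1829.6, 2400.4 and 2224 in AKI (0.62, SE 0.15, adjusted p = 0.0319). Its neighbour let-7c-5p on chromosome 16 (77598936 to 77599750), which has a further hairpin elsewhere, had -0.34. The call of miR-99a-5p was lost without chow WT replicate 1 (adjusted p = 0.0542), chow WT replicate 2 (0.0659), HFD WT replicate 1 (0.112), HFD WT replicate 3 (0.150) or AKI replicate 3 (0.104).

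A Hox cluster microRNA, miR-615-3p, rose at low counts, from 13, 7 and 7 in HFD WT to 43, 41 and 29 in AKI (1.64, SE 0.35, adjusted p = 0.0139). It was not called without HFD WT replicate 2 (0.0682) or HFD WT replicate 3 (0.0829). The hepatocyte microRNA miR-122-5p stood at 4758, 4145 and 4497 normalised CPM in HFD WT and at 5676, 25944 and 11214 in AKI. AKI replicate 1 was barely above HFD WT, and the libraries of the other batch label were far above it. The log2 fold change was 1.68 (SE 0.44, adjusted p = 0.0412) with all libraries, 0.93 without AKI replicate 2 (adjusted p = 0.0135) and 0.48 in AKI replicate 1 alone (adjusted p = 0.199). The call was also lost without chow WT replicate 1 or 2 (0.0755 and 0.0657), any HFD WT library (0.107, 0.147 and 0.146) or AKI replicate 3 (0.0568). It was the single call among 6 tested hepatocyte microRNAs, whose median was 0.48, against 1.45% called higher over all tested. The next in level, miR-192-5p, stood at 2612, 2949 and 3046 in HFD WT and at 3132, 5103 and 3663 in AKI (0.47, adjusted p = 0.105).

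**Figure D3:**
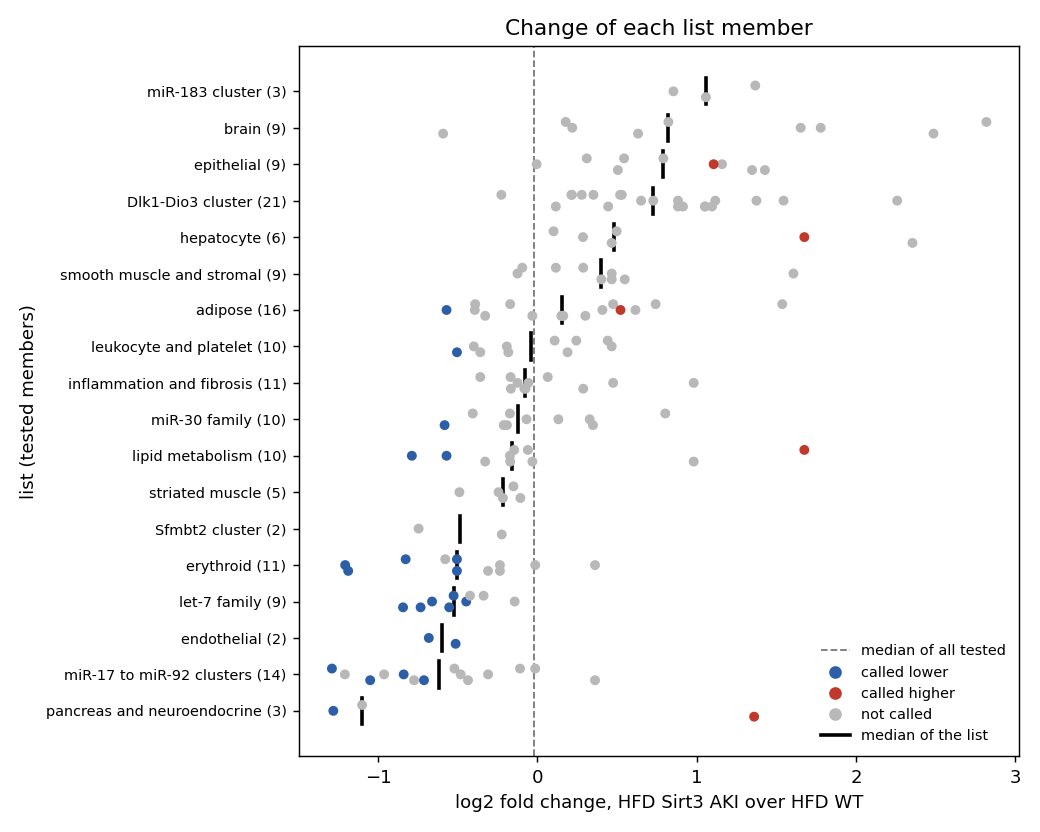
Log2 fold change of AKI over HFD WT for each tested member of 18 lists of microRNAs (points; blue lower, red higher, grey not called), with each list's median (black bar) and the median of all tested microRNAs (dashed line). The let-7 family, the miR-17 to miR-92 clusters and the endothelial and erythroid lists lie to the left of the line with called decreases, while the brain, miR-183 cluster and Dlk1-Dio3 lists lie to its right with no call.

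Several lists with raised medians held no call, and their values followed AKI replicate 2. Brain microRNAs had a median of 0.82 with none of 9 called, the miR-183 cluster 1.06 with none of 3, the Dlk1-Dio3 imprinted cluster 0.73 with none of 21, and smooth muscle and stromal microRNAs 0.40 with none of 9. Epithelial microRNAs had 0.79 with 1 of 9 called, miR-205-5p, against 1.45% called higher over all tested. In AKI replicate 1 alone the medians were -0.50 for brain, -0.08 for the miR-183 cluster, -0.27 for Dlk1-Dio3, -0.10 for stromal and 0.33 for epithelial microRNAs. Without AKI replicate 1, so with only the other batch label, 6 of 9 brain, 3 of 3 miR-183 cluster, 10 of 24 Dlk1-Dio3, 4 of 9 stromal, 6 of 9 epithelial and 4 of 7 hepatocyte microRNAs were called higher, against 12.5% of the 441 tested.

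The neuronal microRNA miR-9-5p had 239, 131 and 313 normalised CPM in HFD WT and 105, 3754 and 968 in AKI. Replicate 1 was below each HFD WT library, and the others were above all of them, replicate 2 by the most. It was not called (2.82, SE 0.91, adjusted p = 0.0754). The epithelial miR-203-3p had 1040.2, 1186 and 1288 in HFD WT and 1258, 6081 and 2125 in AKI (1.43, adjusted p = 0.0754). The same order of AKI libraries was seen for miR-200a-3p, at 462, 1735 and 623, and for miR-182-5p of the sensory epithelium, at 106, 454 and 209. It was also seen for the imprinted miR-127-3p, at 126, 641 and 280.0, and for miR-34a-5p, which p53 induces, at 119.6, 541 and 201. HFD WT held 130.1, 158 and 148 of miR-34a-5p. In replicate 2 none of these 6 was under 3 times the value of replicate 1, and none was called. They were picked for high values in replicate 2 or in both libraries of the other batch label. A high replicate 2 is therefore no separate result. The same choice gave miR-122-5p, which had the same order of AKI libraries and was called higher.

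The share of counts was also taken over whole lists. These shares are of library totals, without the TMM factors used for the levels. On library totals the tested microRNAs shifted upward in AKI, with 36 called higher and 11 lower. A higher share of a list is therefore not separated from that shift. Hepatocyte microRNAs took 0.647% ± 0.0348 of the counts in HFD WT and 1.96% ± 1.38 in AKI (SD, n = 3), with 0.915%, 3.52% and 1.44% in AKI replicates 1, 2 and 3. Epithelial microRNAs took 0.382% ± 0.0775 and 1.07% ± 0.568, and brain microRNAs 0.322% ± 0.0272 and 0.630% ± 0.294. The brain share was above HFD WT in AKI replicate 1 too, at 0.425%. It is mostly miR-128-3p, which stood at 3717, 3519 and 3578 normalised CPM in HFD WT and at 4242, 4189.5 and 4159.5 in AKI (0.22, adjusted p = 0.188). On library totals the AKI libraries were above all HFD WT libraries in each of these 3 lists. That order gives the smallest two-sided p that the exact permutation test can reach, 0.1. Shares with the TMM factors were not tested. Tests were run on 4 lists with the erythroid one, and none passes 0.05. Whether the batch, the library or the mice account for AKI replicate 2 cannot be told apart.

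**Figure D4:**
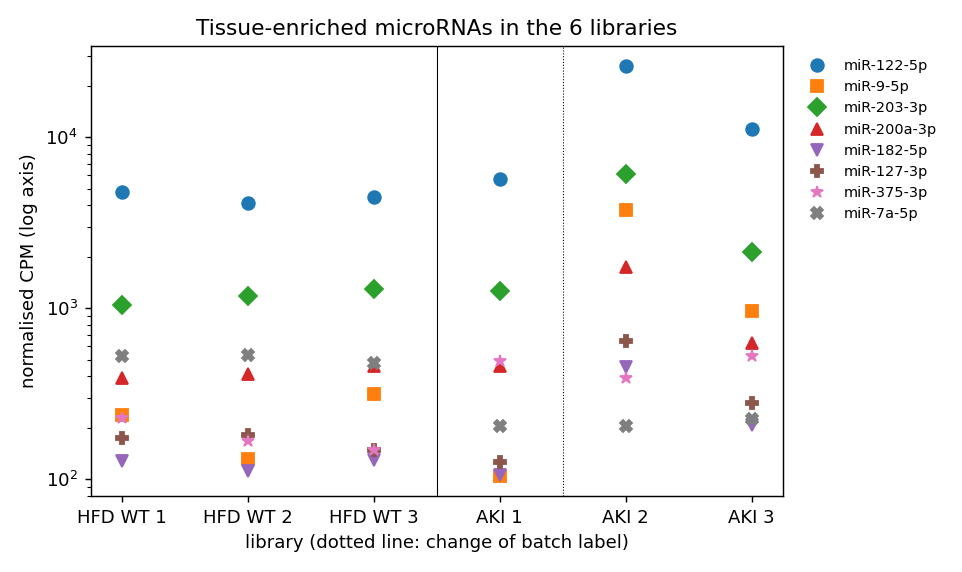
Normalised CPM (log axis) of 8 microRNAs in the 6 libraries; the solid line parts HFD WT from AKI and the dotted line marks the change of batch label. In AKI replicate 2, 6 of them, picked for high values there or in the other batch label, stand at their highest value. By contrast miR-7a-5p is low and miR-375-3p is high in all 3 AKI libraries.

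In each of the 37 called microRNAs AKI replicate 1 lay beyond the HFD WT range on the side of the call, and in 31 the mean of replicates 2 and 3 lay further out. Over all tested microRNAs AKI replicate 1 was below HFD WT in 41.8% and above it in 20.8%. Since the call used AKI replicate 1 as well, its side is no separate support. Among the remaining 6 were miR-7a-5p and miR-375-3p. Among microRNAs at a mean of 100 normalised CPM or more, the largest gaps below all other libraries in both libraries of the other batch label were in miR-144-5p, let-7g-5p, miR-15a-5p and miR-15b-3p. The first has been given; let-7g-5p had 1811 in replicate 1 and 1189 and 1362 in replicates 2 and 3, against 2538, 2649.6 and 2638 in HFD WT. For miR-15a-5p replicate 1 was within the HFD WT range, at 752, and the others at 406 and 523 (-0.41, adjusted p = 0.226). For miR-15b-3p the AKI values were 123, 92.5 and 94.7 against 156, 189 and 174 in HFD WT (-0.74, SE 0.19, adjusted p = 0.0335).

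**Figure D5:**
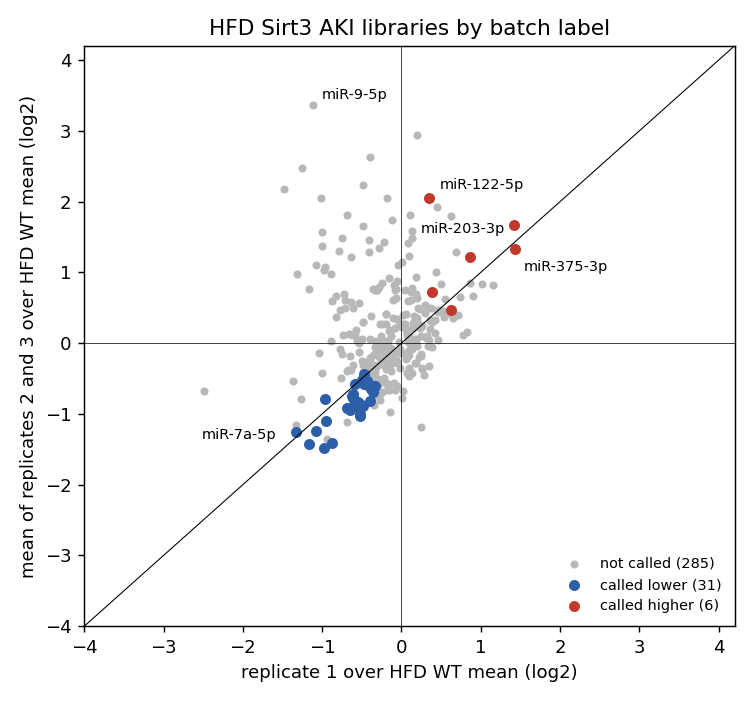
Log2 ratio to the HFD WT mean in AKI replicate 1 against that of the mean level of replicates 2 and 3, which have the other batch label. Drawn are the 322 tested microRNAs at a mean of at least 10 normalised CPM. Called microRNAs lie in the lower left (31 lower) and upper right (6 higher) and mostly beyond the diagonal. The point of miR-9-5p is below 0 in replicate 1 and above 3 for the mean of the other libraries.

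Striated muscle microRNAs showed no call among 5 tested (median -0.22). The most abundant, miR-133a-3p, was at 5306 ± 418 and 4929 ± 313 normalised CPM (SD, n = 3; -0.11, adjusted p = 0.614). No call was made among 11 microRNAs of inflammation and fibrosis either (median -0.07), including miR-21a-5p (-0.17, adjusted p = 0.368) and miR-29a-3p (-0.06, adjusted p = 0.845). The inflammation-induced miR-155-5p had 217, 231 and 245 in HFD WT and 179, 184 and 178 in AKI, without overlap (-0.36, adjusted p = 0.117). Of the Sfmbt2 cluster 2 members were tested, with -0.75 for miR-669c-5p (adjusted p = 0.0568) and -0.22 for miR-467e-5p (adjusted p = 0.711).

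Partner arms were also examined. Apart from the pairs of miR-144 and miR-126a, 10 partner arms of the 6 increases and the 12 decreases with the smallest adjusted p were tested. They had log2 fold changes from -0.47 to 2.35, and none was called, where 7.49% of all tested were called lower and 1.45% higher. The highest of them was miR-122-3p, with 2, 1 and 9 counts in HFD WT and 3, 52 and 23 in AKI. RefSeq sequences matched 347 of the 406 known tested microRNAs and 30 of the 37 called. Their median GC content was 47.8% over all tested, 40.9% in the 26 lower and 53.4% in the 4 higher ones that matched. The motif GGAG, searched in the mature strand, was found in 34 of the tested sequences (9.80%), in 1 of the 26 lower and in 1 of the 4 higher, miR-205-5p.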

How the data were processed

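Small RNA was sequenced from serum vesicles, and the labels place 3 libraries in each group. The authors deposited whole-number read counts per mature microRNA, and a TPM table that the authors made from them; each TPM value matched the count over the library total times 1000000, so it has no length term. Bowtie 0.12.2 and the build mm8 are named per the submitters' processing notes, with no role; the microRNA reference and counting program were not given in the sources used here. The deposited counts were filtered with filterByExpr (minimum count 10; the 755 microRNAs left out held 0.0543% of the counts), scaled by TMM and tested with edgeR 4.0.16 in R 4.3.3 (quasi-likelihood, group means over all 9 libraries, Benjamini-Hochberg adjusted p below 0.05 over 414 microRNAs). Every adjusted p comes from it unless another tool is named. A total of 20 alternatives were run, with DESeq2 1.42.0 and limma 3.58.1 (on log2 of TPM with a pseudocount of 1) among them. Log2 ratios of single libraries used normalised CPM with 0.5 added. The pipeline was tested on simulated counts without a batch difference, for the sign of the set changes and the correlation with them. That check put no limit on false calls. Names follow a rule (the 12 smallest adjusted p in each direction, the calls of the fit of 6 libraries, the 8 most abundant, the 2 most abundant of each of 18 lists, the miR-30a arms, the most library- or batch-dependent ones, and partner arms and seed mates); further members of a counted family, cluster or list, and the small counts named, were picked with their values known. The members and lists were chosen with earlier results of these data known. MicroRNAs with identical counts in every library (9 sets, 18 microRNAs) cannot be assigned to one locus. Coordinates and hosts are from the GRCm38.p6 annotation. Predicted microRNAs were tested with the others.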

Additional observations from a re-analysis of the deposited data

How the results depend on the processing

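The counts of calls depended on the processing. Calls of lower microRNAs numbered 14 with DESeq2 size factors, 11 with library totals, 11 with limma on TPM, 2 in the 6 high fat diet libraries alone, 1 with the batch term and 11 in the larger batch alone; they stayed within 1.5 times the reported count with DESeq2 (26), no filter (22), voom with group weights (27), identical microRNAs counted once (30) and the replicate block (24). Calls of higher microRNAs numbered 10, 36, 29, 1, 0 and 12 in the first 6 of these, 35 with DESeq2 and 33 without a filter, and 5, 6 and 7 in the last 3. With the batch term 53 microRNAs had an unadjusted p below 0.05, against 109 in the fit reported and 90 in the 6 libraries alone. Leaving out single libraries gave between 1 and 55 higher and between 12 and 47 lower. DESeq2 gave no adjusted p for 113 microRNAs. Libraries of equal replicate number were not more alike than others. Deviations from the HFD WT and AKI means correlated at -0.0069, -0.080 and -0.034 for equal numbers, and from -0.12 to 0.13 for unequal ones. With 3 libraries in each group this cannot exclude a pairing, and the replicate block is given on that footing. Of the 26 named calls 3 remained in the 6 libraries alone, 1 with the batch term and 10 in the larger batch, where the AKI group is 1 library assumed to vary like the others. The batch term also takes its AKI contrast from AKI replicate 1, so it and the larger batch alone are not independent alternatives. Calls under the exact tests of shares could not pass 0.05. Depth limits miR-615-3p, miR-106a-5p, miR-122-3p and miR-7b-5p, each with a library under 15 counts.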

Other observations

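Some microRNAs were seen in one group alone, all at counts near the limit of detection. In all 3 AKI libraries and no HFD WT library there were 6, the most counted being miR-377-3p of the Dlk1-Dio3 cluster with 9, 8 and 1 counts, miR-1948-3p with 2, 11 and 3, and miR-470-5p with 3, 6 and 3. In all 3 HFD WT libraries and no AKI library there were 8, led by miR-92b-5p with 4 counts in each and miR-6546-3p with 4, 2 and 4. Of these 14 only miR-1291 passed the filter on low counts, through its counts in chow WT, and it was not called.

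Without AKI replicate 2, 2 of 5 striated muscle microRNAs were called lower, against 7.94% of the 428 tested, and 0 of 5 with all libraries. In AKI replicates 1 and 3 miR-1a-3p stood at 1736 and 2222 normalised CPM, below the HFD WT range of 2876 to 3541, while replicate 2 stood at 4357 (-0.67 without it, adjusted p = 0.00354). In the same pair of libraries miR-206-3p stood at 1427 and 1593, against 2026 to 2078 in HFD WT and 2202 in replicate 2 (-0.42 without it, adjusted p = 0.0218). For miR-30d-5p all 3 AKI libraries, at 10058, 8692 and 10575, were above HFD WT, at 7317, 7460.5 and 8568. The log2 fold change was 0.33 (adjusted p = 0.106), 0.44 without AKI replicate 2 (adjusted p = 0.0182) and 0.63 with library totals (adjusted p = 0.00622). These microRNAs were picked with their values known.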
